A study of Mus musculus with 6 samples.

Results

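Matrix metalloproteinases, ADAM and ADAMTS proteases and the tissue inhibitors of metalloproteinases were compared between somatic cells of the fetal mouse testis and mouse embryonic stem cells (ESC). The members were all genes whose symbol starts with Mmp, Adam or Adamts and a number, and Timp1 to Timp4. The gene table used held 80 such genes, and 79 of them, all but Mmp27, had a probe, 105 probes in all of the array's 39429 gene probes. The soma group held 3 samples of gonadal somatic cells from male E13.5 embryos. Their background was MCH x C57BL6/J, and they carried the reporter transgene Oct5<delta>PE-GFP, spelled here as in the labels. The ESC group held 3 samples of the male line VR15, which carries the transgene Vasa::RFP. Each RNA was hybridised with Cy3 to its own 1-colour Agilent array. The series calls the 3 samples of a group biological replicates but does not give their animals or cultures, and the ESC values come from 1 cell line, so they cannot be told apart from features of that line.

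Metalloproteinases use a zinc ion to cut proteins. Matrix metalloproteinases (MMP) are made as inactive precursors that cut collagens, gelatin and other matrix proteins once activated. ADAM proteases sit in the cell membrane and release the outer parts of other membrane proteins, while ADAMTS proteases are secreted and bind the matrix, where they cut proteoglycans or process procollagen. The tissue inhibitors (TIMP) bind the active site, and Timp3 also inhibits several ADAM and ADAMTS enzymes. In the fetal testis such enzymes are studied for the laying down of the matrix around the cords and in the interstitium.

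The 75th percentile of the gene probes ran from 1245 to 1388 on the soma arrays and from 959 to 1016 on the ESC arrays, which do not overlap (exact permutation test, two-sided, p = 0.1, the smallest p that 3 against 3 allows). The share of gene probes well above background lay between 56.0% and 63.3%, and the scanner marked no gene spot as saturated. Every value below is a scaled signal, in array units, in which all arrays share the same 75th percentile of 1140, so signals of 1 probe can be compared between arrays but not those of different probes. All 6 pluripotency markers were higher in ESC (summed signal 141800 to 160100 on the ESC arrays and 3400 to 4145 on the soma arrays). All 6 Sertoli markers (18010 to 23820 in soma, 90.3 to 98.6 in ESC), all 6 markers of interstitial stroma (129000 to 143100 and 5694 to 6285) and the 4 fetal Leydig markers with a probe (89810 to 91210 and 3466 to 3971) were higher in soma. The soma samples also held other cells: the 5 red cell markers summed to 684100 to 733400 against 133 to 171 in ESC, and the 6 macrophage markers to 7244 to 7729 against 716 to 1065. The 5 endothelial and the 4 smooth muscle markers were split, each list with 2 higher in soma and 2 higher in ESC. All 6 germ cell markers were well above background on every soma array, with each of them lowest on soma array 1 and highest on soma array 3 (summed 3562 to 7878, and 12180 to 13690 in ESC). The sum hides a split: Dazl and Nanos2 were higher in soma, Mael and Sycp3 in ESC, and Ddx4 and Dppa3 did not pass. Sycp3 alone gave 6999 to 7596 in ESC. Nanos2 gave 307 to 855 in soma and was well above background on no ESC array. In such bulk RNA, fewer cells of a type and less RNA per cell cannot be told apart. Soma arrays 1 and 2 shared a slide and a scan, soma array 3 had a scan of its own on the slide of the 3 ESC arrays, and those 3 shared a scan, which means that group and scan cannot be told apart.

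Most tested members had more signal in soma. A probe was tested if it was well above background on all 3 arrays of at least 1 group, and a gene was read from its brightest such probe. Of the 79 members with a probe 42 could be tested; 30 had the higher signal in soma, 9 in ESC, and 3 did not pass (limma, Benjamini-Hochberg adjusted p over all 19674 genes and unnamed transcripts tested, threshold 0.05). With the same test 84.9% of all genes differed, with 38.3% of all tested higher in soma and 46.6% higher in ESC, so that a difference in itself is common here. The fitted change was at least 2-fold in 25 members higher in soma and 4 higher in ESC. The shares over all genes tested were 23.3% and 24.2%. These counts use the fitted difference also where 1 group was dim. By the bounds given below, Timp4, Adamts6 and Adamts18 in soma and Adam25 in ESC are not shown to reach 2-fold. The 2 groups did not overlap in 40 of the 42, where the background is 87.2%; soma lay above ESC in 30 of them (background 39.5%) and below it in 10 (background 47.7%). A member bright in 1 group and kept with no array of the other group above background had to differ. This held for 7 members with no ESC array above background (6.34% of all genes tested) and 3 with no soma array above background (4.2%). Adam5, Adamts12 and Adamts17, with 1 ESC array above background each, and Adam32, with 2, were also kept only through soma. Of these, Adam32 did not pass. The filter can also be set to genes detected in both groups. With every array required to be well above background, 28 members remained, of which 20 lay higher in soma, 7 in ESC and 1 did not pass, against 35.3% and 49.7% of the 16087 such genes. The median difference of the 42 members was 1.32 on the log2 scale, soma minus ESC, or 1.12 with the dim groups set to their bound, and that of all genes tested was -0.14. Of the 37 members that could not be tested, 22 were well above background on no array and 15 on some.

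**Figure D1:**
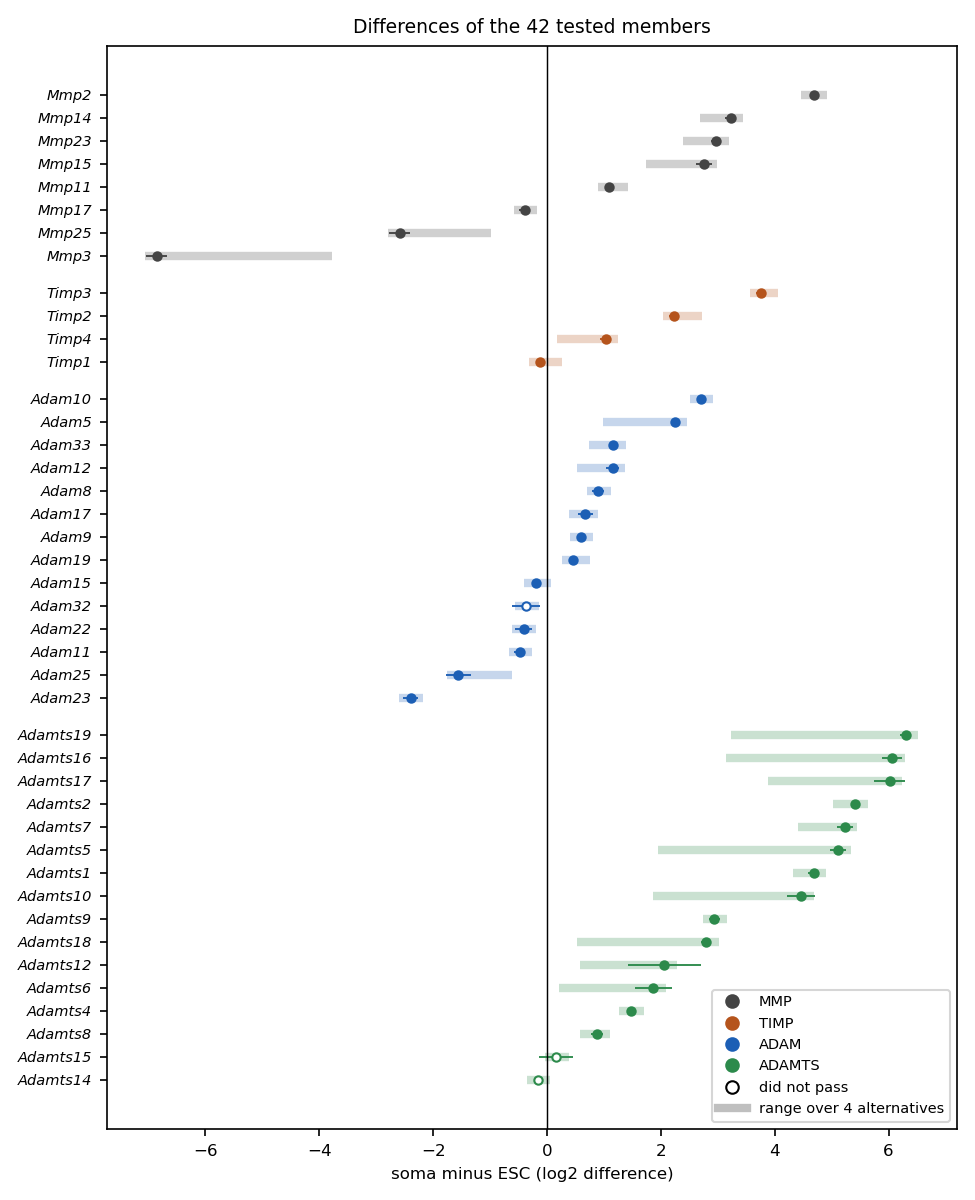
Difference between soma and ESC of the 42 tested members by class, on the log2 scale and coded soma minus ESC, with bars of 1 standard error. Filled points passed the test, and pale bands span the values under quantile normalization, scaling to the array median, scaling to the spike-in probes and normexp background correction; Timp1, Adam15, Adamts14 and Adamts15 have bands that cross 0, and those of Mmp3 and the top ADAMTS genes are wide.

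Among the matrix metalloproteinases, 8 of the 22 with a probe were tested, 5 of which lay higher in soma and 3 in ESC. The shares over all genes tested were 38.3% and 46.6%. The median difference of the 8 was 1.93. Mmp2 encodes gelatinase A, which cuts type IV collagen and denatured collagens. Its scaled signal was 11200, 10640 and 10220 on the 3 soma arrays and 394, 436 and 414 on the ESC arrays. All soma arrays stood far above all ESC arrays, by 4.69 ± 0.06 (log2 difference ± SE) or 25.8-fold (limma, adjusted p = 1.61e-07). The other gelatinase, Mmp9, had signals of 18.3, 16.6 and 11.2 in soma and of 10.6, 17.2 and 11.8 in ESC. These overlap, only 1 array in each group was well above background, and Mmp9 was not tested.

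The membrane-type MMP genes divided between the groups. Mmp14 encodes the membrane protease that activates the Mmp2 precursor with the help of Timp2. It gave 1274, 1162 and 1431 in soma and 128, 138 and 145 in ESC. The groups were apart by 3.23 ± 0.09, or 9.37-fold (limma, adjusted p = 9.08e-07). Mmp15, the second membrane-type MMP, gave 396, 394 and 347 against 45.5, 63.2 and 60.6. Soma was higher on every array, by 2.76 ± 0.14, and by 1.74 with normexp background correction. Mmp17 and Mmp25 encode the 2 members held by a lipid anchor, and both were higher in ESC. Mmp25 gave 17.5, 20.1 and 15.7 in soma, none well above background, and 82.9, 125 and 117 in ESC. For a probe that no array of a group measured well above background, only a bound can be given: the mean of the bright group is set against the higher of the dim probe's own signal and the lowest signal well above background on each array. By this bound Mmp25 was at least 3.61-fold higher in ESC, and as a gene kept with no soma array above background it had to differ. Mmp17 gave 592, 490.3 and 598 in soma and 716, 695 and 785 in ESC, a difference of -0.39 ± 0.10 whose call was lost with scaling to the spike-in probes and with the slide as a block. Mmp16 and Mmp24, the remaining membrane-type genes, were not kept.

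**Figure D2:**
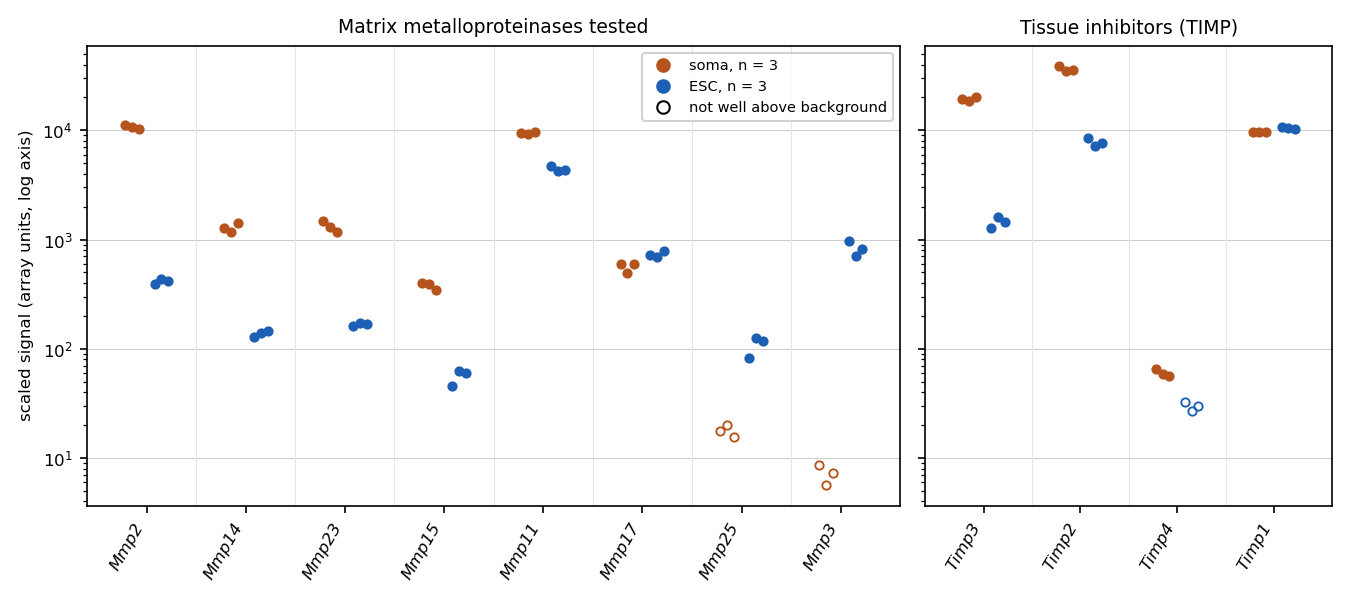
Scaled signal on each of the 6 arrays (log axis) for the 8 tested MMP genes and the 4 TIMP genes, with soma and ESC side by side and open points where the probe was not well above background. Mmp2, Mmp14, Mmp23, Mmp15, Mmp11, Timp3, Timp2 and Timp4 lie higher in soma, Mmp3, Mmp25 and Mmp17 higher in ESC, and the Timp1 groups lie next to each other between 9564 and 10690.

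Of the other MMP genes, Mmp23 gave 1467, 1311 and 1174 in soma and 162, 174 and 167 in ESC, a difference of 2.97 ± 0.09. Mmp11, or stromelysin 3, which is activated inside the cell by furin, gave 9412, 9347 and 9603 against 4675, 4266 and 4330. Both groups were bright, and soma was higher by 1.10 ± 0.05 on this probe and by 1.36 on the other. The 4 interstitial collagenase genes Mmp1a, Mmp1b, Mmp8 and Mmp13 were not kept, since none was well above background on all arrays of a group.

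Mmp3 lay higher in ESC. It encodes stromelysin 1, a secreted protease of broad range that also activates other MMP precursors. Its signals were 8.56, 5.69 and 7.33 in soma, none well above background, and 964, 713 and 811 in ESC. ESC was at least 27.9-fold higher. The fitted difference of -6.86 ± 0.18, which was -3.78 with normexp correction, rests on soma signals at background. Mmp3 was kept with no soma array above background and so had to differ. Beside this, all 5 fibroblast or feeder markers were well above background on every ESC array: Thy1 gave 6340 to 6764 there and 240.3 to 299 in soma. The other 4, Dcn, Lum, Fap and Postn, were lower in ESC than in soma but measured at 276 to 518, 72.3 to 131, 73.4 to 109 and 239 to 248. The part of such cells in the Mmp3 signal was not tested.

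Mmp3 lies in a run of 10 MMP genes on chromosome 9, with at most 1 other protein-coding gene of the RefSeq table between neighbours, in the order Mmp13, Mmp12, Mmp1b, Mmp3, Mmp1a, Mmp10, Mmp8, Mmp27, Mmp20 and Mmp7. Mmp3 was the only one of the run that passed the filter. Mmp13 gave 33.5, 70.6 and 54.2 in ESC, well above background on 2 arrays, and 7.35, 4.95 and 6.23 in soma, on none. Mmp10 was well above background on 1 ESC array (33.8) and Mmp8 on 1 soma array (30.4). Mmp12, Mmp1b, Mmp1a, Mmp20 and Mmp7 were below that level on all 6 arrays.

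**Figure D3:**
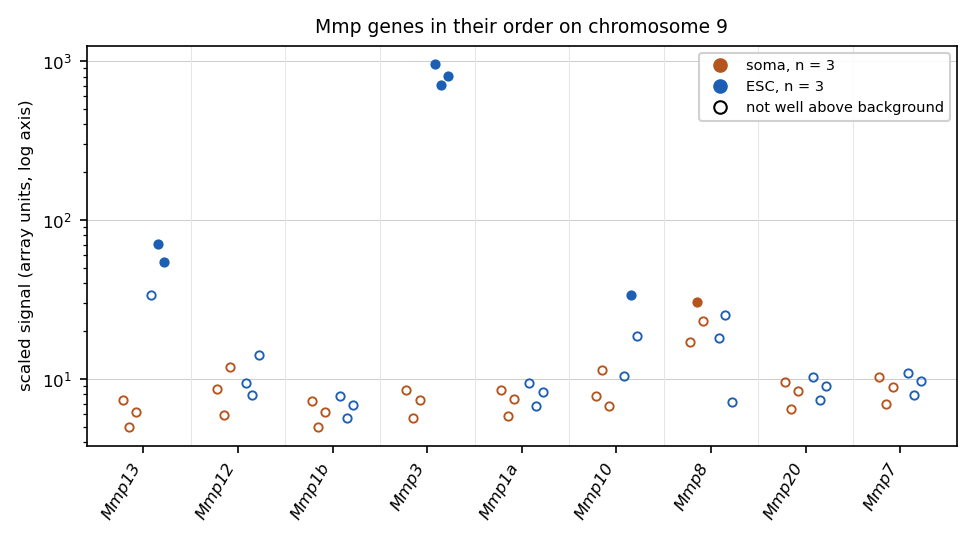
Scaled signal on each array (log axis) for the 9 MMP genes with a probe in the run on chromosome 9, in their order along the chromosome, with open points where the probe was not well above background. Only Mmp3 has all 3 arrays of a group well above background (ESC, 713 to 964); Mmp13 has 2 in ESC, Mmp10 1 in ESC and Mmp8 1 in soma, and levels of different probes are not comparable.

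The promoters of 4 genes of this run are shown because Mmp3, the gene of the run that was tested, and 3 genes that were not kept hold the same motif letters. Sequences are the 150 bases before the start in RefSeq's promoter table on GRCm38.p6, all on the plus strand: Mmp3 at chr9:7445672-7445821, Mmp13 at chr9:7272364-7272513, Mmp10 at chr9:7502192-7502341 and Mmp1a at chr9:7463991-7464140. Capitals mark the TATA box letters TATAAA and the AP-1 letters TGANTCA, searched on both strands, and the 2 do not overlap in these windows.
Mmp3: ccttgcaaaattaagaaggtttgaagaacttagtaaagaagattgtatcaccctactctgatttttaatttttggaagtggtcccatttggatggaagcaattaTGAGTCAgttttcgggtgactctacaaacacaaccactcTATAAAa
Mmp13: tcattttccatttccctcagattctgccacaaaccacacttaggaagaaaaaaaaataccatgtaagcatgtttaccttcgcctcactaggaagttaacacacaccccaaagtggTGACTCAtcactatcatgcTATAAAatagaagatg
Mmp10: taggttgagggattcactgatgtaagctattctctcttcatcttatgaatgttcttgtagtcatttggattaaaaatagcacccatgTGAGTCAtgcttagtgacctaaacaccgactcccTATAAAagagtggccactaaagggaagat
Mmp1a: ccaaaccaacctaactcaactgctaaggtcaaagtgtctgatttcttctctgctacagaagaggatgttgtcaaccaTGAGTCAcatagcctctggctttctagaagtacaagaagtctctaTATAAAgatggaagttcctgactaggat
All 4 windows hold both motifs. The 10 genes of the run have 12 starts in RefSeq's promoter table. Of these starts 7 (58.3%) held TATAAA and 8 (66.7%) TGANTCA in this window, and none held the GC box letters GGGCGG. Over all 32851 starts of the table, 7.57% held TATAAA, 4.24% TGANTCA and 28.6% GGGCGG. A match describes letters only, and Mmp1a, with both motifs, had signals of 5.81 to 9.36 with no array well above background.

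Of the tissue inhibitors, Timp2, Timp3 and Timp4 were higher in soma and Timp1 passed narrowly for ESC with a direction that turned under quantile and spike-in scaling. Timp3 stays bound to the matrix and inhibits MMP, ADAM and ADAMTS enzymes. It gave 19240, 18730 and 20370 in soma and 1288, 1605 and 1442 in ESC. The groups were apart by 3.76 ± 0.09 (limma, adjusted p = 5.55e-07). Timp2, which inhibits Mmp2 and also takes part in its activation, gave 38440, 34650 and 35750 against 8500, 7181 and 7617. Soma was higher by 2.23 ± 0.08 on this probe and by 0.95 on the other. Timp4 was dim: 65.4, 59.3 and 56.3 in soma and 32.4, 26.7 and 29.7 in ESC, where no array was well above background. It was at least 1.86-fold higher in soma, and its call was lost with normexp correction. Timp1 gave 9687, 9610 and 9564 in soma and 10690, 10420 and 10350 in ESC. Its difference was -0.12 ± 0.04 (limma, adjusted p = 0.0372). Under quantile normalization it was 0.27 and passed as higher in soma, so the call itself reversed. It was 0.10 with scaling to the spike-in probes and lost its call when any 1 array was left out.

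Of the 34 ADAM genes 14 were tested: 8 lay higher in soma, 5 in ESC and 1 did not pass, and their median difference was 0.52. Over all genes tested 38.3% were higher in soma and 46.6% in ESC. The widely expressed ADAM genes with an active protease leaned to soma, 7 of the 8 tested, and for 5 of the 8 the difference was under 2-fold. Adam10 encodes the protease that cleaves Notch receptors and cadherins. It gave 7985, 7966 and 7838 in soma and 1167, 1232 and 1255 in ESC. Soma was higher on all arrays by 2.70 ± 0.05, or 6.51-fold (limma, adjusted p = 2.76e-07). Adam17, which releases tumour necrosis factor and EGF receptor ligands, gave 169, 183 and 176 against 90.5, 126 and 117. The groups did not overlap, and the difference of 0.68 ± 0.13 passed (limma, adjusted p = 0.00338) but did not within the slide that holds both groups, where soma has 1 array.

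Adam33 gave 240.4, 247 and 237 in soma and 114, 111 and 100.2 in ESC, a difference of 1.16 ± 0.06. Adam12, or meltrin alpha, gave 106, 114 and 126 against 56.2, 54.6 and 44.9, a difference of 1.15 ± 0.11. On a second Adam12 probe all soma arrays and no ESC array were well above background. In Adam33 and Adam12 every soma array lay above every ESC array on the probe used. Adam8 gave 1417, 1608 and 1208 against 769, 743 and 741, a difference of 0.90 ± 0.11. Adam9 was higher in soma by 0.59 and Adam19 by 0.45. Adam15, the exception of this group, gave 5228, 5027 and 5026 in soma and 5620, 5794 and 6152 in ESC, and its difference of -0.20 ± 0.06 turned to 0.07 under quantile normalization and 0.02 with scaling to the spike-in probes. Adam28 was not kept, with 250.2 on soma array 2 and no more than 8.08 on the others.

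Adam11, Adam22 and Adam23 encode ADAM proteins without protease activity that are known from neurons, where Adam22 and Adam23 bind the secreted protein Lgi1. All 3 were higher in ESC on the probe used, beside 46.6% of all genes tested, but only Adam23 by over 2-fold. Adam23 gave 677, 729 and 917 in soma and 4336, 3864 and 3951 in ESC. The groups were far apart on this probe (-2.40 ± 0.13, or 5.27-fold; limma, adjusted p = 7.61e-06), while a second Adam23 probe, well above background on all 6 arrays, differed by 0.06. Adam11 gave 476, 411 and 522 against 659, 635 and 663, a difference of -0.48 ± 0.10, and its second probe showed the opposite, 1.77. The mean of both Adam11 probes was 0.65, so no direction holds for this gene over its probes. Adam22 gave 157, 164 and 162 against 227, 255 and 169, and its difference of -0.41 ± 0.15 (limma, adjusted p = 0.0452) lost its call when any of 5 single arrays, all but ESC array 3, was left out.

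The remaining 22 ADAM genes are mostly known from the testis and epididymis, where several act on the sperm surface. Only 3 of them were tested at this fetal stage. Adam5 gave 154, 154 and 154 in soma and 32.5, 30.2 and 35.0 in ESC, where 1 array was well above background. Soma was higher by 2.24 ± 0.07 on this probe, and by 0.99 with normexp correction. On the second Adam5 probe all soma arrays and no ESC array were well above background. Adam25 gave 11.2, 10.6 and 18.3 in soma, none well above background, and 39.5, 36.5 and 38.4 in ESC, which makes it at least 1.29-fold higher in ESC. Adam32 gave 41.8, 45.9 and 39.3 against 39.5, 53.9 and 76.1, with overlapping groups and a difference of -0.37 ± 0.24 (limma, adjusted p = 0.193). A second Adam32 probe, not kept, gave 20.7, 5.11 and 6.48 in soma and 209.9, 280 and 7.14 in ESC. On that probe 2 ESC arrays and no soma array were well above background. Of the other 19, 11 were well above background on no array. Adam2, which encodes fertilin beta of the sperm surface, gave 29.6, 93.6 and 125 in soma and 30.1, 6.31 and 60.2 in ESC, with 2 soma arrays and 1 ESC array well above background.

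**Figure D4:**
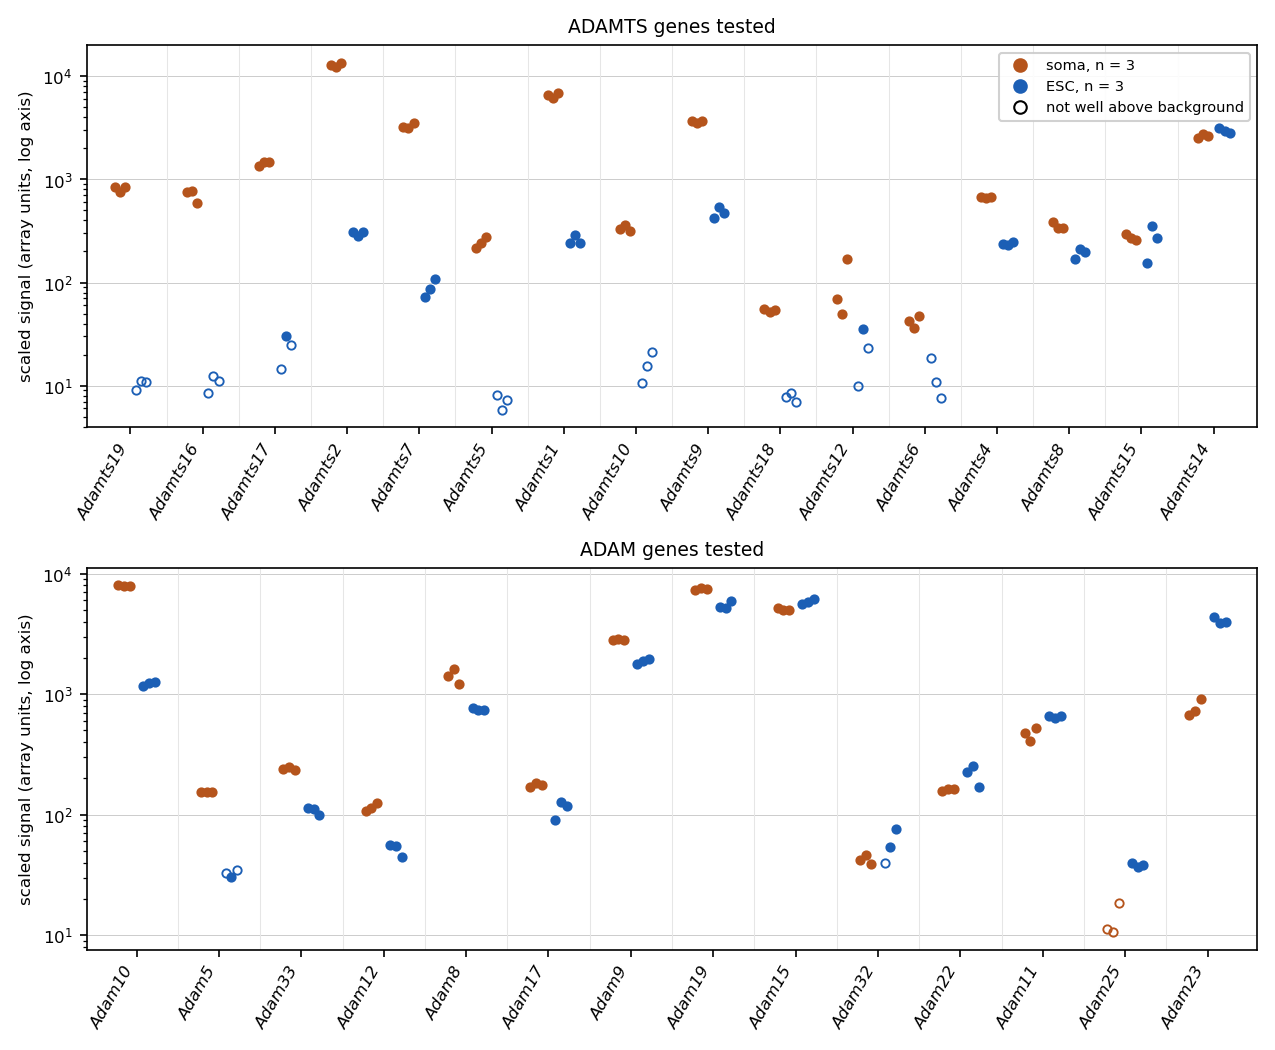
Scaled signal on each array (log axis) for the 16 tested ADAMTS genes (top) and the 14 tested ADAM genes (bottom), ordered by their difference, with open points where the probe was not well above background. Most ADAMTS genes lie higher in soma, some with ESC at background. Among the ADAM genes, Adam10, Adam5, Adam33, Adam12 and Adam23 differ by at least 2-fold. Adam25 has all its soma points open, and the others differ by less than 2-fold.

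Of the 19 ADAMTS genes 16 were tested: 14 were higher in soma, none was higher in ESC and 2 did not pass (limma, adjusted p). Over all genes tested the shares were 38.3% in soma and 46.6% in ESC. At an unadjusted limma p under 0.05 there was 1 higher in ESC, Adamts14. The fitted change was at least 2-fold in 13 of the 14, but the bounds of Adamts6 and Adamts18 stay under 2-fold. The median difference of the 16 was 3.70, or 2.92 with dim groups at their bound. Of the 14, 6 were kept with no ESC array above background (6.34% of all genes tested) and so had to differ. Adamts12 and Adamts17, with 1 ESC array above background each, were also kept only through soma. Among the 8 well above background on all 6 arrays, fitted on their own, 6 lay higher in soma, 1, Adamts14, lay higher in ESC, and 1 did not pass, for a median of 2.21; the 6 MMP genes under this filter, 5 of them higher in soma, had a median of 2.86.

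Adamts2 encodes the protease that removes the amino-terminal propeptide of fibrillar procollagens. It gave 12940, 12240 and 13540 in soma and 308, 286 and 312 in ESC. All soma arrays were far higher, by 5.42 ± 0.06 or 42.8-fold (limma, adjusted p = 1.53e-07). A second Adamts2 probe gave 119, 119.8 and 116 in soma and 182, 5.82 and 7.12 in ESC, so there the groups overlap, with ESC array 1 above every soma array. Adamts14, of the same group, gave 2545, 2773 and 2643 against 3134, 2978 and 2806. Its groups did not overlap, but the difference of -0.16 ± 0.06 did not pass (limma, adjusted p = 0.0538), and it was 0.06 with scaling to the spike-in probes. Adamts3, the third of them, was well above background on no array.

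Of the proteases that cut aggrecan, versican and other proteoglycans, 5 of the 6 tested were higher in soma, beside 38.3% of all genes tested. Adamts1 cuts versican and is needed for ovulation in the adult. It gave 6668, 6130 and 6953 in soma and 239, 289.6 and 239 in ESC. The groups were apart by 4.69 ± 0.10, or 25.8-fold (limma, adjusted p = 3.64e-07). Adamts5, its neighbour on chromosome 16, gave 216, 241 and 274 in soma and 8.10, 5.85 and 7.29 in ESC. No ESC array was well above background, and Adamts5 was at least 7.48-fold higher in soma. Adamts9 was higher by 2.94, Adamts4 by 1.48 and Adamts8 by 0.88. Adamts15, the neighbour of Adamts8 on chromosome 9, gave 295, 273 and 257 against 156, 356 and 268, with overlapping groups and a difference of 0.16 ± 0.30 (limma, adjusted p = 0.638) that was -0.04 with scaling to the array median.

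Adamts7 and Adamts12 cut cartilage oligomeric matrix protein. Adamts7 gave 3224, 3173 and 3506 in soma and 72.7, 86.7 and 107.3 in ESC, a difference of 5.23 ± 0.15 or 37.6-fold (limma, adjusted p = 8.08e-07). Adamts12 was the least even member within both groups, with 69.7, 49.2 and 171 in soma and 9.86, 35.5 and 23.0 in ESC. Soma array 3 was the high one, and the germ cell markers were also highest on that array; their part was not tested. The Adamts12 difference of 2.06 ± 0.64 (limma, adjusted p = 0.0233) lost its call without soma array 3, without ESC array 1 and with normexp correction. A second Adamts12 probe was well above background on no array.

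Adamts6, Adamts10, Adamts16, Adamts17, Adamts18 and Adamts19, which have fewer known substrates, were all higher in soma, beside 38.3% of all genes tested. In 5 of them, all but Adamts17, no ESC array was above background, so these 5 had to differ. Over all genes tested 6.34% were kept in this way. Adamts19 gave 844, 749 and 844 in soma and 9.07, 11.0 and 10.9 in ESC. It was at least 25.01-fold higher in soma, and as 1 of these 5 genes it had to differ. Adamts16 gave 758, 770 and 585 against 8.38, 12.3 and 11.2, at least 21.6-fold higher in soma. Adamts17, whose human counterpart is mutated in a short stature and lens disorder, gave 1350, 1487 and 1473 against 14.5, 30.1 and 24.8, with 1 ESC array well above background and a difference of 6.02 ± 0.27. The second Adamts16 probe (9.20, 6.18 and 7.97 in soma) was well above background on no array. The second Adamts17 probe (29.0, 24.05 and 31.8 in soma) was not either. Under normexp correction the differences were 3.23 for Adamts19, 3.15 for Adamts16 and 3.89 for Adamts17. Adamts10, a protease that binds fibrillin, was at least 10.3-fold higher in soma, Adamts18 at least 1.66-fold and Adamts6 at least 1.29-fold, the last without a call under normexp correction.

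Promoters of 4 members higher in soma are shown to set beside those of the chromosome 9 run. They are the 150 bases before the start in RefSeq's table on GRCm38.p6, all on the plus strand, for Mmp14 at chr14:54431448-54431597, Timp3 at chr10:86300262-86300411, Adamts2 at chr11:50601935-50602084 and Adam10 at chr9:70678832-70678981. Capitals mark the GC box letters GGGCGG, or CCGCCC where they lie on the other strand; in Adam10 the 2 matches overlap.
Mmp14: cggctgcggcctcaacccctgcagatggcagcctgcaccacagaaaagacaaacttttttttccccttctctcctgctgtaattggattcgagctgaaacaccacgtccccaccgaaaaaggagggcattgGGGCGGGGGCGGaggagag
Timp3: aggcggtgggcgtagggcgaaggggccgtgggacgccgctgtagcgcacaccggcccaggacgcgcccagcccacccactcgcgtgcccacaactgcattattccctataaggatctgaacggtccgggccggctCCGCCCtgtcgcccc
Adamts2: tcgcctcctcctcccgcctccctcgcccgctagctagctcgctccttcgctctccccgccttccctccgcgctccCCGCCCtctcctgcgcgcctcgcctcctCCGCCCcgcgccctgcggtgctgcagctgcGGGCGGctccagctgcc
Adam10: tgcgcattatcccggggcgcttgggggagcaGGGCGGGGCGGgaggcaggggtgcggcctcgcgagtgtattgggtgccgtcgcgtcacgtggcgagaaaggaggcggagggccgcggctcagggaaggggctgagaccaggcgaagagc
The table matched 50 of the 80 members. Of the 17 matched members higher in soma 12 held a GC box, 1 held TATAAA and 1 TGANTCA. Of the 7 matched members higher in ESC 3 held a GC box, 1 TATAAA and 1 TGANTCA, the last 2 both in Mmp3. A GC box stood in 4 of the 24 matched members not kept and in 8459 of all 27025 genes of the table. These shares describe the letters of the windows and say nothing of which factor binds them.

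Genes that activate or hold back these enzymes were also read. Of 17 tested activators and inhibitors 12 lay higher in soma, 4 in ESC and 1 did not pass, and the median was 1.26. Over all genes tested the shares were 38.3% for soma and 46.6% for ESC. The proprotein convertase Pcsk5, which cuts precursors, gave 5632, 5595 and 5676 in soma and 9.51, 20.7 and 18.7 in ESC. No ESC array was well above background, and Pcsk5 was at least 174-fold higher in soma. Both plasminogen activators were higher in soma, Plau at least 6.98-fold and Plat by 4.51 ± 0.05. The urokinase receptor Plaur (-2.07 ± 0.07) and Thbs2 (-1.23 ± 0.09) were higher in ESC. The activators thus differed in direction from the receptor. Furin, a convertase of MMP and ADAM precursors, was higher in soma by 1.61 ± 0.12, and Reck, a membrane-bound MMP inhibitor, by 2.95 ± 0.07; these 2 were named after their values were seen.

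Of 8 tested partners that carry Adam10 and Adam17 to the cell surface, 4 lay higher in each group, and their median was 0.04. This is near the shares of all genes tested, 38.3% for soma and 46.6% for ESC. The Adam10 partners Tspan15 (3.68 ± 0.18) and Tspan14 (0.88 ± 0.07) and the Adam17 partner Rhbdf1 (1.60 ± 0.05) were higher in soma. Rhbdf2 (-1.14 ± 0.08), Tspan33 (-1.53 ± 0.13) and Tspan17 (-1.07 ± 0.08) were higher in ESC, so the 2 iRhom genes, Rhbdf1 and Rhbdf2, differed in direction. Of 9 EGF family and related ligands that ADAM proteases release, 3 were tested: Nrg1 was higher in soma by 5.37 ± 0.09, and Hbegf (-1.73 ± 0.07) and Egf (-0.64 ± 0.17) were higher in ESC.

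Of 11 matrix substrates of ADAMTS proteases 7 lay higher in soma, 3 in ESC and 1 did not pass, and the median was 2.11. Over all genes tested 38.3% lay higher in soma and 46.6% in ESC. The type III collagen gene Col3a1 gave 61570, 58760 and 70610 in soma and 1187, 805 and 1010 in ESC, 64.2-fold higher in soma. Col1a2 (3.97 ± 0.09) and the proteoglycan gene Vcan (3.55 ± 0.08) were higher in soma as well, and Ncan (-2.08 ± 0.19) and Nid2 (-0.94 ± 0.06) in ESC. Comp was at least 2.42-fold higher in ESC. Of 7 tested relatives of the astacin and pappalysin families 5 lay higher in soma and 2 in ESC, against the same shares over all genes. The median was 1.75. Bmp1, the procollagen C-proteinase, was higher in soma by 4.22 ± 0.14, Pappa by 3.07 ± 0.12 and Pappa2 at least 6.82-fold. Under the alternative setting that lowered it most, the Bmp1 difference was 2.46. The meprin gene Mep1b (-6.30 ± 0.22) and Pcolce2 (-5.72 ± 0.39), an enhancer of Bmp1, were higher in ESC. Of the 3 tested ADAMTS-like genes, whose products lack the protease, Adamtsl2 was at least 6.01-fold higher in soma, Adamtsl1 was higher there by 2.43 ± 0.18, and Adamtsl4 (-2.01 ± 0.10) was higher in ESC.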

How the data were processed

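Values started from the scanner files of 6 arrays (Agilent Feature Extraction, per the file headers). The authors' deposited intensity is the processed signal, background-subtracted per the file headers. Control spots and spots marked as outliers were left out, spots of a probe were averaged, and log2 intensity minus the array's 75th percentile of the deposited signal was used. The deposited log2 table of the series, whose centring is not stated, matched these values after centring to within 0.01 for at least 99.96% of 39429 probes. Probes were named through their transcript identifier and the RefSeq table (GRCm38.p6), which matched 66.1% of gene probes; 14203 of the 19674 units tested carried a symbol and the others were kept by transcript. The test between soma and ESC was limma's (version 3.58.1, R 4.3.3; lmFit and eBayes, two-sided, no covariate), with Benjamini-Hochberg adjustment over all units and differences coded soma minus ESC. Data were simulated with 19674 units, of which 50 each were changed by 0.25, 0.5, 1 and 2 on the log2 scale. Of these changes 2%, 34%, 82% and 98% were recovered, and 8 unchanged units were called. In the real data 84.9% of units passed, which makes the adjusted threshold less strict there. The recovery rates and the 8 calls therefore do not describe the real comparison. The number of arrays limits the precision.

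Per-array values are given for the TIMP genes, for the 5 members of each class with the largest difference in each direction among those that passed, and for Mmp2, Mmp9, Mmp14, Adam10, Adam17 and Adamts1; other members with per-array values were chosen after theirs were seen. From each list of related genes the 3 largest in each direction are named, except 1 gene that is not reported here. Members and lists were chosen with earlier results of these data known. The alternatives were 4 other scalings or background corrections, other filters, averaging all kept probes of a gene, the authors' deposited log2 table, another variance model, a test against a log2 difference of 1, blocks for replicate number, slide and scan, and leaving out each array.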

Additional observations from a re-analysis of the deposited data

How the results depend on the processing

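Of 826 values of the 42 tested members under alternative settings 761 kept direction and side of the threshold, 50 lost the call, 7 gained it and 8 reversed; 22 members kept both under every alternative run. The causes of these changes were not tested, except that stricter filters and tests leave fewer genes by construction. With a test against a log2 difference of 1, 7596 of all genes differed in place of 16712, and 19 members were higher in soma (ADAM 2) and 3 in ESC (ADAM 1, TIMP 0). With scaling to the spike-in probes, the slide as a block, or the shared slide alone, 5 members were higher in ESC (ADAM 3, TIMP 0 in each); the last 2 settings rest on soma array 3 against the ESC arrays. With genes above background on all 6 arrays, MMP genes higher in ESC were 1, ADAMTS genes 6 in soma and 1 in ESC. The ADAMTS count in ESC was also 1 with scaling to the array median, with a variance trend and robust estimation, and with scan as a random block, an alternative chosen after seeing the data. Leaving out 1 array at a time gave 16058 to 16591 genes, 29 to 30 members higher in soma and 7 to 9 in ESC, 0 to 1 ADAMTS genes in ESC and 0 to 0 TIMP genes in ESC. The TIMP count in ESC was 0 as well under quantile normalization, normexp correction and no filter. Same-numbered samples did not deviate together (r = -0.05, 0.07 and 0.03), so the numbers do not pair them; with the replicate block 16481 genes differed, with 30 members higher in soma, 7 in ESC and 0 TIMP genes in ESC. Reversed values were Timp1 0.27 (quantile, called higher in soma) and 0.10 (spike-in), Adam15 0.068 and 0.021 (the same), Adam11 0.65 (mean of probes), Adamts14 0.058 (spike-in), Adamts15 -0.039 (array median) and, with 1 array left out at a time, -0.17 to 0.42, the medians of MMP (-0.14) and ADAM (-0.14) with no filter, and the median of all genes under spike-in scaling (0.078). Against a median of -0.14, scaling moved all genes by 0.12 (quantile), -0.20 (array median) and 0.22 (spike-in), and the split of genes higher in soma and in ESC from 7540 and 9172 to 8106 and 8358, 6538 and 10228, and 8516 and 7704. Values near background are limited most: normexp correction shrank the differences of dim members.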
